A study of Mus musculus with 15 samples.

Results

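Liver pools of adult male mice were set apart by their level of Dbp, the gene of a PAR bZIP transcription factor whose transcript rises and falls over the day in liver. The pools were selected on the log2 value of 1 probe set, the brightest on average across the 15 arrays of those annotated to Dbp. Pools above 9 on the log2 scale formed the high-Dbp class and pools below 7 the low-Dbp class. Of 15 pools, 14 were members: 5 in the high class and 9 in the low class, with 1 pool between the limits left out. Because a measured value chose the pools, every difference given here is an association with the Dbp level and not the effect of a treatment. No hour of tissue collection stands in the labels.

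The study asked whether liver expression of males that met a nutritional challenge early in life is seen again in their sons. Whole liver RNA was hybridised to the Affymetrix Mouse Genome 430 2.0 array, which reads a gene through 1 or more short-oligonucleotide probe sets, and each of 5 groups had 3 pools. Control pools 1 to 3 came from control males of both generations. IUGR F1 pools 4 to 6 came from males whose intake was cut by 50% in utero, and ON F1 pools 7 to 9 from males overfed during lactation. IUGR F2 pools 10 to 12 and ON F2 pools 13 to 15 came from male offspring of those males. The titles give a 3 after the word for pool, taken here to mean 3 livers in each. Whether pools of a group are separate litters is not said, and p-values thus reflect the variation among these pools, which may in part be technical.

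In the liver clock, the activators Arntl (BMAL1) and Clock, or its relative Npas2, switch on the period and cryptochrome genes, whose proteins then hold the activators back. The same activators drive Nr1d1 and Nr1d2, which encode the REV-ERB repressors, and these in turn repress Arntl, Npas2, Clock, Cry1 and Nfil3. Dbp, Tef and Hlf are PAR bZIP activators that bind D-box sites, where the repressor NFIL3 competes with them. In liver this output arm is known for its part in the daily rhythm of detoxification and lipid genes.

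The high-Dbp class held pool 2 of the controls (Dbp 10.07), pools 5 (9.77) and 6 (9.08) of IUGR F1, and pools 13 (9.84) and 14 (10.71) of ON F2. In the 9 low-Dbp pools Dbp had a lowest value of 5.30, a median of 5.88 and a highest value of 6.89. IUGR F1 pool 6 lay just inside the upper limit, control pool 3 (6.89) just inside the lower one, and IUGR F2 pool 12 (7.97) between them. The class means were 9.90 ± 0.59 (SD, n = 5) and 5.91 ± 0.58 (SD, n = 9), given as a description with no test, since these values chose the pools. The other probe set of Dbp, which the rule did not use, ran from 7.62 to 8.88 in the high class and from 4.53 to 5.68 in the low class, with pool 12 at 6.48. The classes were spread unevenly over the groups: all 3 ON F1 pools were low, 2 IUGR F2 pools were low and the other lay between, and control, IUGR F1 and ON F2 held both classes.

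Measures of array quality overlapped between the classes. Pairs of arrays correlated at 0.9832 to 0.9954 across all probe sets, with a mean of 0.9909 both within and between classes, and no 2 arrays were identical. The actin 3′-to-5′ log2 ratio, which rises as RNA is degraded, was 1.83 to 2.06 in high-Dbp and 1.76 to 2.22 in low-Dbp pools. The Gapdh ratio was 1.08 to 1.24 in the high and 1.08 to 1.43 in the low class. The hepatocyte markers Alb, Apoa1, Ttr, Tat and Cps1 had a mean log2 level of 13.50 to 13.57 in high-Dbp and 13.46 to 13.53 in low-Dbp pools.

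Per3, Tef, Nr1d2 and Nr1d1 were higher in high-Dbp pools by 0.88 to 1.97 on the log2 scale, and Nfil3 was lower. A gene counts as called where limma's adjusted p, by Benjamini-Hochberg over all 18192 genes other than Dbp, is below 0.05. Without a further factor 13 genes were called, 0.0715% of all genes, 6 of them higher (0.033%) and 7 lower (0.0385%). At an unadjusted p under 0.05 there were 1201 genes (6.6%), 482 higher (2.65%) and 719 lower (3.95%). With nutritional group as a factor 2 genes were called (0.011%), Per3 and Tef, both higher, and 866 genes (4.76%) had an unadjusted p under 0.05. Of 19 measured genes of the clock and PAR bZIP lists 5 were called, and the other 8 called genes were in no clock list.

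**Figure D1:**
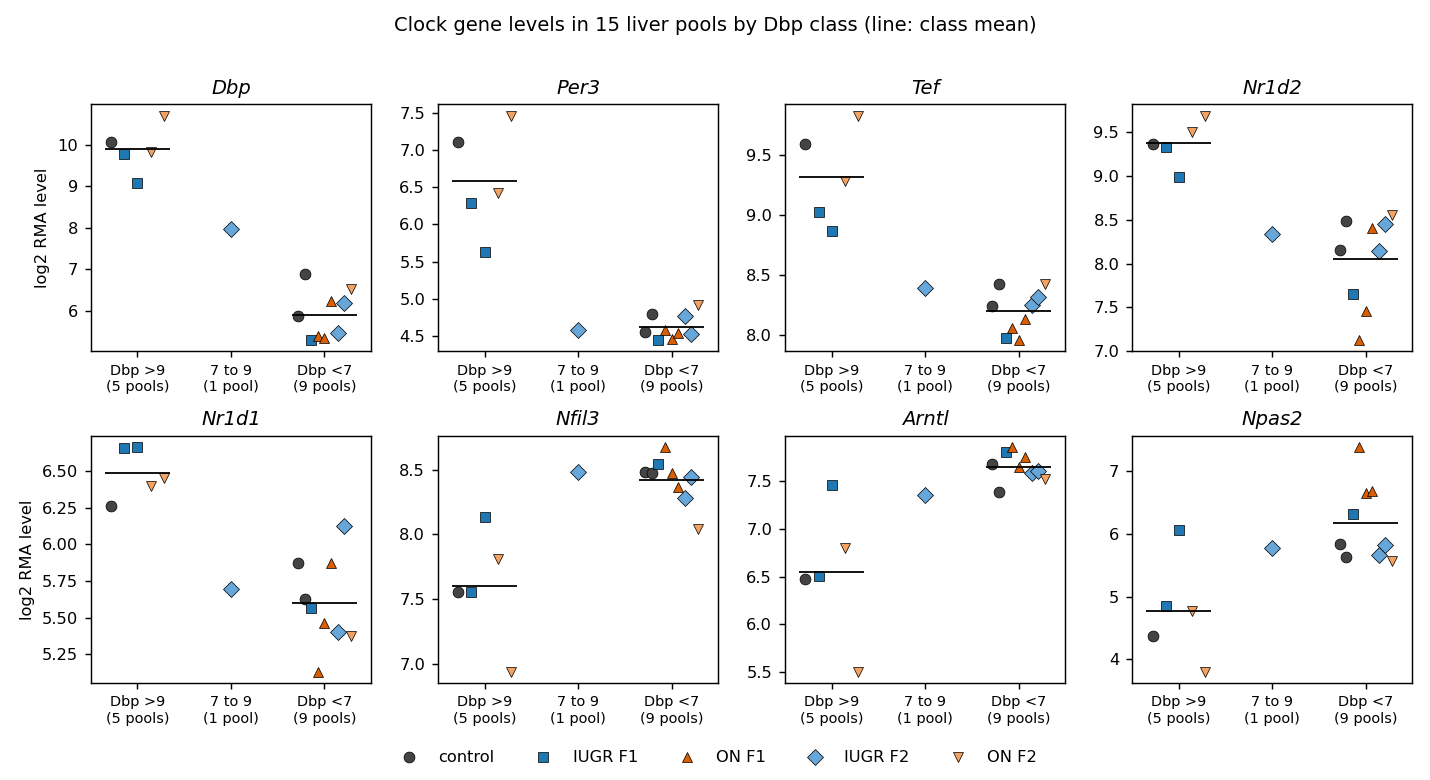
Log2 expression of clock genes in every pool, one panel per gene, with high-Dbp pools, pool 12 and low-Dbp pools side by side, markers for the nutritional groups and lines at the class means. Per3, Tef, Nr1d2 and Nr1d1 do not overlap between the classes, and pool 12 lies within the low-Dbp range for these 4 genes.

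Per3, a period gene that is not required for the clock to run, had the largest difference of the called genes. It read 7.12 in pool 2, 6.29 in pool 5, 5.63 in pool 6, 6.42 in pool 13 and 7.47 in pool 14, against a lowest value of 4.44, a median of 4.54 and a highest value of 4.92 in the low class. All 5 high-Dbp pools lay above all 9 low-Dbp pools. The difference was 1.97 ± 0.21 (SE), a 3.92-fold higher level (limma adjusted p = 0.000875). It was 2.00 ± 0.22 with nutritional group as a factor (limma adjusted p = 0.00557), and 2.45 within control, 1.52 within IUGR F1 and 2.03 within ON F2 pools. Per3 has 6 probe sets, whose differences were 1.97, 0.99, 0.98, 0.93, 0.20 and 0.01, so the size depended on the probe set read.

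Tef, a PAR bZIP factor closely related to Dbp, read 9.59, 9.02, 8.86, 9.28 and 9.83 in pools 2, 5, 6, 13 and 14. The low class had a lowest value of 7.96, a median of 8.24 and a highest value of 8.43. The classes did not overlap, and the difference was 1.12 ± 0.14 (SE), 2.17-fold (limma adjusted p = 0.00223). With nutritional group as a factor it was 1.12 ± 0.11 (limma adjusted p = 0.0031), and within control, IUGR F1 and ON F2 it was 1.26, 0.97 and 1.13. The other 2 probe sets of Tef gave 0.67 and 0.14. Hlf, the remaining PAR bZIP gene, was not called, at 0.13 ± 0.08 (limma adjusted p = 0.814), and its classes overlapped.

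The REV-ERB genes were both called. Nr1d2 read 9.37, 9.33, 8.99, 9.51 and 9.69 in pools 2, 5, 6, 13 and 14, against a lowest value of 7.13, a median of 8.15 and a highest value of 8.55 in the low class. All high-Dbp pools lay above all low-Dbp pools, by 1.33 ± 0.21 on average (SE; 2.51-fold, limma adjusted p = 0.0247). The other probe set of Nr1d2, which was dim with a mean of 3.755, gave 0.155. Nr1d1 read 6.26, 6.66, 6.66, 6.40 and 6.45 in the same pools, and 5.13, 5.57 and 6.12 at the lowest, median and highest low-Dbp pool. Its classes did not overlap either, and the difference was 0.88 ± 0.13 (SE; 1.84-fold, limma adjusted p = 0.02). With nutritional group as a factor neither was called: Nr1d2 stood at 1.20 (limma adjusted p = 0.235) and Nr1d1 at 0.89 (limma adjusted p = 0.31). Both were higher in the high-Dbp pools of each of the 3 groups that held both classes, Nr1d2 by 1.05, 1.50 and 1.04 and Nr1d1 by 0.51, 1.10 and 1.05 in control, IUGR F1 and ON F2.

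Promoters of the called clock genes that hold a searched motif are shown because these members moved together. The windows are the 250 bases before an annotated start in RefSeq, build GRCm38.p6. Both strands were searched for the E-box CACGTG and E-prime box CACGTT of the activators, the D-box TTATGTAA of the PAR bZIP factors and NFIL3, the ROR elements of the REV-ERB and ROR receptors, which are AANT followed directly by AGGTCA or by GGGTCA, and the cyclic AMP element TGACGTCA. Capitals mark the matches, and any window of these genes without a match is not shown. Per3 lies on the minus strand at chr4:151044666-151044915. Tef has windows of separate starts at chr15:81802423-81802672 and chr15:81811164-81811413 on the plus strand. Nr1d1 is on the minus strand at chr11:98775378-98775627.
Per3: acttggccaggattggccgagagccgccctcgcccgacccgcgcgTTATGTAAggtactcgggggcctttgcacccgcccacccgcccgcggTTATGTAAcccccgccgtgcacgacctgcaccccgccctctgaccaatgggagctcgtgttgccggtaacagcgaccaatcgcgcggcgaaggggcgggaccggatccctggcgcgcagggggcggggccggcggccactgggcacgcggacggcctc
Tef, upstream start: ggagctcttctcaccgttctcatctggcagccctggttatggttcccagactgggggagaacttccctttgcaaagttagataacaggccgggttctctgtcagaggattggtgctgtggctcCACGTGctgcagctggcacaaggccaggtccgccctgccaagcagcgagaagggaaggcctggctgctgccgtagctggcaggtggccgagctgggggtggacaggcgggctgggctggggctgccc
Tef, downstream start: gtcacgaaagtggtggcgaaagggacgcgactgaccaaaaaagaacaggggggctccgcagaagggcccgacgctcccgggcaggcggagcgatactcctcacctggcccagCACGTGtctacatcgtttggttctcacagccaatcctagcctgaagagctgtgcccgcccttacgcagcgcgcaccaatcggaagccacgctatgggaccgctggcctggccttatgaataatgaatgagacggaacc
Nr1d1: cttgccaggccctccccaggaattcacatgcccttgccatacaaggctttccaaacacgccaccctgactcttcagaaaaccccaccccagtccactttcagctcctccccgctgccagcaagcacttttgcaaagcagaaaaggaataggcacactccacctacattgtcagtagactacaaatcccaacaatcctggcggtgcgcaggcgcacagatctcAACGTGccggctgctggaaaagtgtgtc

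The Per3 window held D-boxes beginning 205 and 158 bases before the start. A D-box was found in 0.819% of the 32851 promoter windows in the table, and 2 or more in 6 windows (0.0183%). The Tef windows shown held an E-box at 127 and 138 bases before their starts, where 6.02% of all windows hold one. The Nr1d1 window held an E-prime box at 28 bases, read as AACGTG on the strand printed, where 3.85% of windows hold one. Among the 17 clock and PAR bZIP genes with a window, an E-box was found in 5 (Per1, Cry1, Ciart, Bhlhe41 and Tef), an E-prime box in 4 (Rorb, Cry1, Cry2 and Nr1d1), a D-box in Per3 alone and the cyclic AMP element in Hlf alone. That element occurs in 1.55% of windows. The ROR elements, in 0.177% and 0.174% of windows, were found in none of the 17. Nr1d2 and Nfil3, which were also called, held none of the searched motifs. Among the called genes outside the clock lists, Lonrf3 held an E-box and Tubb2a the cyclic AMP element. A match is a description of these letters and not a measured binding site, and genes with several windows had more chances of one.

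Nfil3, the repressor that shares D-box sites with the PAR bZIP factors, was lower in high-Dbp pools. It read 7.55, 7.55, 8.13, 7.81 and 6.94 in pools 2, 5, 6, 13 and 14, against a lowest value of 8.04, a median of 8.47 and a highest value of 8.67 in the low class. Pool 6 lay within the low-Dbp range and the other 4 high-Dbp pools below it. The difference was -0.82 ± 0.14 (SE), and the low class stood 1.77-fold higher (limma adjusted p = 0.0389). With nutritional group as a factor it was -0.77 (limma adjusted p = 0.44), and it was negative within control (-0.93), IUGR F1 (-0.70) and ON F2 (-0.67). The call was kept in 2 of the 14 fits that each left out 1 pool.

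None of the 6 measured activators and ROR receptors was called in limma, 3 were lower at an unadjusted p under 0.05, and 4 of the 6 differences were negative, with a median of -0.20 against -0.003 over all genes. Arntl, the obligate partner of Clock and Npas2, read 6.47, 6.51, 7.46, 6.80 and 5.51 in pools 2, 5, 6, 13 and 14, with 7.38, 7.65 and 7.86 as the lowest, median and highest low-Dbp values. Pool 6 alone overlapped the low class, and the difference of -1.10 ± 0.20 missed the threshold (limma adjusted p = 0.0587). Without pool 6 Arntl was called at -1.33 (limma adjusted p = 0.00325), and without pool 14 it was -0.84 and not called (limma adjusted p = 0.0721). Npas2 read 4.38, 4.85, 6.07, 4.78 and 3.81, against 5.57, 5.84 and 7.39 in the low class, and again pool 6 overlapped. The ON F1 pools had the highest Npas2 levels, 7.39, 6.66 and 6.69, and this group has no high-Dbp pool. The Npas2 difference was -1.40 ± 0.33 (limma adjusted p = 0.203), -1.17 ± 0.26 with nutritional group as a factor (limma adjusted p = 0.447), and -1.72 without pool 6, where it was called (limma adjusted p = 0.0216). Without pool 14 it was -1.16 (limma adjusted p = 0.694).

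Clock read 7.19, 7.19, 7.30, 7.16 and 6.73 in the high class and 7.31, 7.36 and 7.63 at the lowest, median and highest low-Dbp pool. The classes did not overlap, but only just, with a highest high-Dbp value of 7.304 and a lowest low-Dbp value of 7.305. The difference of -0.34 ± 0.09 was not called (limma adjusted p = 0.315), and within IUGR F1 it was -0.06. Genes whose classes do not overlap made up 0.231% of all genes (42). Rora, an activating receptor at the elements that REV-ERB also binds, stood at -0.07 ± 0.07, its relative Rorb at 0.01 ± 0.08 and Arntl2 at 0.05 ± 0.08. None of these 3 was called.

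Of 10 measured repressors 3 were called, all higher (Per3, Nr1d1 and Nr1d2), and 9 of 10 differences were positive, with a median of 0.52. Per1 read 6.39, 6.35, 5.19, 6.05 and 6.23 in pools 2, 5, 6, 13 and 14 and 4.87, 5.22 and 5.80 at the lowest, median and highest low-Dbp pool. Pool 6 lay within the low range and the others above it, and the difference of 0.80 ± 0.19 was not called (limma adjusted p = 0.193), but was without pool 6, at 1.02 (limma adjusted p = 0.00717). Without pool 2 the Per1 difference was 0.72 (limma adjusted p = 0.455). Per2 overlapped more widely, at 7.37, 6.81, 5.71, 6.20 and 6.72 against 5.73 to 6.48, with a difference of 0.44 ± 0.21 (limma adjusted p = 0.758). Cry1 was the repressor with a negative difference, -0.85 ± 0.18 (limma adjusted p = 0.107). It read 6.02, 5.60, 6.47, 5.47 and 5.35 in the high class and 6.18 to 7.32 in the low class, and without pool 6 it was called at -1.02 (limma adjusted p = 0.011), while without pool 14 it was -0.74 (limma adjusted p = 0.385). Ciart, which encodes a repressor also named CHRONO, stood at 0.59 ± 0.12 (limma adjusted p = 0.0926), Cry2 at 0.36 ± 0.09 (limma adjusted p = 0.203), Bhlhe40 at 0.46 ± 0.16 (limma adjusted p = 0.616) and Bhlhe41 at 0.09 ± 0.08 (limma adjusted p = 0.862).

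**Figure D2:**
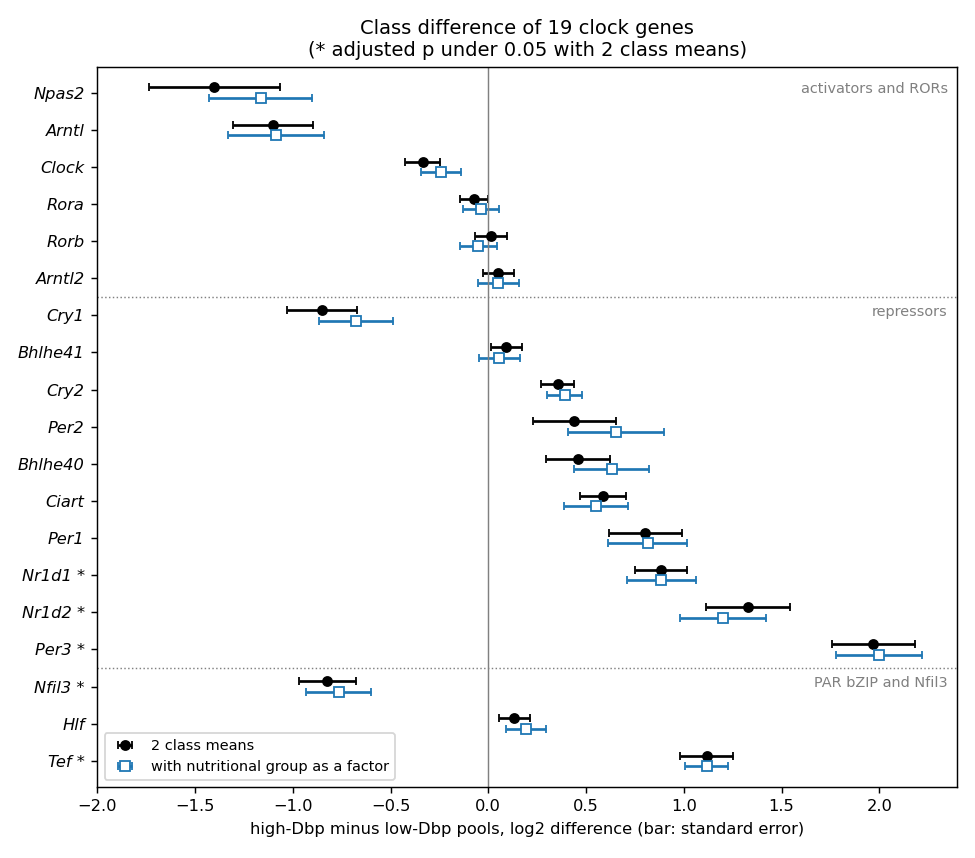
Log2 difference, high-Dbp minus low-Dbp pools, with standard error, for each measured clock and PAR bZIP gene and Nfil3, without and with nutritional group as a factor. Per3 (1.97) and Npas2 (-1.40) lie at the ends, and the estimates of both fits have the same sign for each gene other than Rorb.

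The high-Dbp pools differed among themselves. Ordered by Dbp they ran 14, 2, 13, 5, 6, and Per3, Tef and the RIKEN transcript A930033H14Rik followed the same order. Npas2 ran in the reverse order, from pool 6 down to pool 14. Arntl and Nfil3 fell in the order 6, 13, 5, 2, 14. Among these 5 pools, pool 6 had the lowest Per1, Per2, Per3, Tef and Nr1d2 and the highest Arntl, Npas2, Nfil3 and Cry1, while its Nr1d1 was at the top of the class (6.66). With 5 pools these orders are descriptions. IUGR F2 pool 12, outside both classes, lay within the low-Dbp range for 10 of the 13 called genes, with Per3 at 4.57, Tef at 8.39, Nr1d2 at 8.34, Nr1d1 at 5.70 and Nfil3 at 8.48. For the other 3 it lay between the ranges: Lonrf3 at 6.78, Slc30a10 at 8.06 and Tubb2a at 10.61.

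Narf and A930033H14Rik, outside the clock lists, were also higher in high-Dbp pools. Narf, which encodes a protein that binds prenylated prelamin A, read 7.84, 7.93, 7.75, 8.04 and 7.93 in pools 2, 5, 6, 13 and 14, against 7.39, 7.57 and 7.62 at the lowest, median and highest low-Dbp pool. The classes did not overlap, and the difference was 0.37 ± 0.06 (limma adjusted p = 0.0247). A930033H14Rik, a transcript known by its RIKEN clone name, read 5.70, 5.53, 5.32, 5.67 and 5.90, against 4.74, 5.11 and 5.24. Its classes were apart as well, by 0.54 ± 0.09 on average (limma adjusted p = 0.0389). Each was higher in all 3 groups with both classes, Narf by 0.25, 0.25 and 0.54 and A930033H14Rik by 0.63, 0.26 and 0.72 in control, IUGR F1 and ON F2. Neither was called with nutritional group as a factor (limma adjusted p = 0.461 for Narf and 0.44 for A930033H14Rik).

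Besides Nfil3, 6 genes were lower in high-Dbp pools. Tubb2a, a beta-tubulin, read 10.32, 10.24, 10.46, 9.67 and 9.77 in pools 2, 5, 6, 13 and 14, and 10.68, 10.97 and 11.46 at the lowest, median and highest low-Dbp pool. All high-Dbp pools lay below all low-Dbp pools, by -0.89 ± 0.14 on average, so that the low class was 1.85-fold higher (limma adjusted p = 0.02). Its brightest probe set is of a type that can read near-identical family members, so the paralogue is uncertain, and the other probe set gave -0.52. Slc30a10, a manganese exporter, read 7.63, 7.82, 7.86, 7.45 and 7.15, against 8.06, 8.27 and 8.61. The classes did not overlap, and the difference was -0.70 ± 0.11 (limma adjusted p = 0.02). Tubb2a and Slc30a10 were not called with nutritional group as a factor (limma adjusted p = 0.198 and 0.187).

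Dtx4, a Deltex E3 ubiquitin ligase, read 6.73, 6.85, 6.79, 6.74 and 6.61 in the high class and 7.07, 7.15 and 7.32 at the lowest, median and highest low-Dbp pool. The difference was -0.42 ± 0.06 (limma adjusted p = 0.00546), and -0.47 with nutritional group as a factor, where it was not called (limma adjusted p = 0.0728). Lonrf3, a RING finger protein, read 6.32, 5.67, 6.74, 6.34 and 5.90, against 6.80, 7.04 and 7.56, with no overlap and a difference of -0.89 ± 0.15 (limma adjusted p = 0.0389). Zfp932, a zinc finger gene, lay at 5.82 to 5.94 in the high and 5.97 to 6.27 in the low class, with a difference of -0.32 ± 0.06 (limma adjusted p = 0.0389). Lrfn3, a synaptic adhesion gene named after its values were seen because its classes overlap, stood at -0.53 ± 0.09 (limma adjusted p = 0.0389). Lonrf3, Zfp932 and Lrfn3 were not called with nutritional group as a factor (limma adjusted p = 0.447, 0.531 and 0.415).

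Of the 13 called genes 11 did not overlap between the classes, against 0.231% of all genes, and all 13 had the same sign in control, IUGR F1 and ON F2, against 28.3% of all genes. The calls came from these same pools, so neither count is separate evidence. For all 13, every probe set of the gene had the same sign, although Nfil3, Nr1d1, Lrfn3 and Zfp932 have a single one. The test of whether the class difference itself varied between the 3 groups called 0 genes in limma, and 332 genes (1.82%) had an unadjusted p under 0.05 there.

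**Figure D3:**
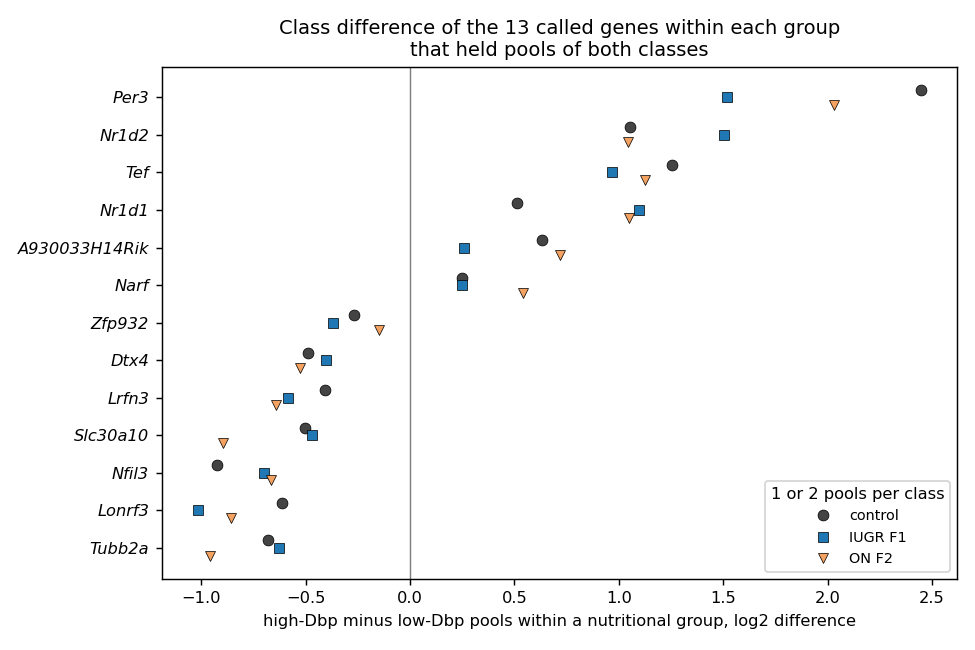
Log2 difference, high-Dbp minus low-Dbp pools, within control, IUGR F1 and ON F2 for the called genes, each point resting on 1 or 2 pools per class. All points of a gene lie on the same side of 0, with Per3 between 1.52 and 2.45.

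None of the clock-controlled output genes was called, and most of their differences were positive. The list was written with earlier results of these data known. Of 21 measured clock-controlled output genes 17 had a positive difference, with a median of 0.27 against -0.003 over all genes, of which 48.7% were positive. At an unadjusted p under 0.05, 9 were higher and 4 lower, and limma called 0. Usp2, a ubiquitin-specific protease with clock-driven expression, read 7.23, 6.55, 5.92, 6.71 and 7.14 in pools 2, 5, 6, 13 and 14 and 5.51 to 6.14 in the low class. Pool 6 again lay within the low range, and the difference was 0.91 ± 0.17 (limma adjusted p = 0.0757). Slc45a3, a solute carrier, stood at -0.62 ± 0.13 (limma adjusted p = 0.0978). Among 14 kinases and ligases that act on clock proteins, limma called 0 and 2 were higher at an unadjusted p under 0.05, while 9 differences were positive and the median was 0.01. Timeless, the other member named there, stood at 0.27 ± 0.12.

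All 13 measured genes of the list of REV-ERB-repressed genes had a negative difference, with a median of -0.43. Of these 1, Nfil3, was called, and 9 had an unadjusted p under 0.05. The list holds Arntl, Npas2, Clock and Cry1, so it is not separate from the lists above, and it was written with earlier results of these data known.

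Metabolic and other gene lists held no called member: in the 13 lists beside the clock and its outputs, limma called 0 of 244 measured genes that no clock list holds, where 0.0715% of all genes were called. At an unadjusted p under 0.05, 8 of the 244 were higher and 16 lower, where 2.65% of all genes were higher and 3.95% lower. The counts given with each list use the same level and also include genes that a clock list holds. Detoxification genes, which include known targets of the PAR bZIP factors, had 14 of 21 negative differences, a median of -0.06 and 2 members lower at that level. Cyp2b10, an inducible cytochrome P450, stood at -0.93 ± 0.42 (limma adjusted p = 0.748) and at -0.30 with nutritional group as a factor. Genes of bile acid synthesis and export had 13 of 18 positive, a median of 0.11, and 2 members higher and 2 lower. Among them Abcg5 and Abcg8, whose products together export sterols into bile, stood at 0.48 ± 0.12 and 0.38 ± 0.09 (limma adjusted p = 0.216 and 0.207).

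Lipogenic genes had 19 of 23 negative differences, a median of -0.17, and 3 members higher and 2 lower at an unadjusted p under 0.05, with the fatty acid elongase Elovl3 at -0.49 ± 0.18 (limma adjusted p = 0.623) beside the triglyceride enzyme Dgat2 at 0.18 ± 0.05 (limma adjusted p = 0.448). Cholesterol synthesis genes had a median of -0.02 and 1 member lower. In that list Insig2, which holds back the processing of SREBP and is a known REV-ERB target, was at -0.43 ± 0.09 (limma adjusted p = 0.0926). It read 10.81, 11.04, 11.08, 11.20 and 10.62 in pools 2, 5, 6, 13 and 14 and 11.20, 11.34 and 11.50 at the lowest, median and highest low-Dbp pool, so the classes met at 11.20. PPARA targets had 18 of 25 negative, a median of -0.04, and 1 member higher and 5 lower, with the lipid droplet proteins Plin5 at -0.39 ± 0.11 (limma adjusted p = 0.343) and Plin2 at -0.30 ± 0.10 (limma adjusted p = 0.521). Genes of glucose output and storage had 10 positive and 11 negative differences, with 1 member higher and 1 lower.

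Cell cycle genes had 19 of 23 positive differences, a median of 0.10, and 1 member higher and 1 lower at an unadjusted p under 0.05. Wee1, a mitotic inhibitor kinase and known clock target, stood at 0.70 ± 0.21 (limma adjusted p = 0.422), and Cdkn1a, a cyclin-dependent kinase inhibitor, at -0.89 ± 0.25 (limma adjusted p = 0.377). Acute phase genes had 15 of 19 positive, a median of 0.08 and 1 member higher, Orm3 at 1.11 ± 0.36 (limma adjusted p = 0.499), where ON F2 pool 13 was highest at 8.14. Glucocorticoid response genes had a median of 0.11, heat- and cold-responsive genes 0.02, chaperones of the endoplasmic reticulum -0.01, NAD and haem genes -0.02 and immediate early genes 0.04. In each of these 5 lists 0 or 1 members were higher and 1 or 2 lower at an unadjusted p under 0.05, and limma called none.

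**Figure D4:**
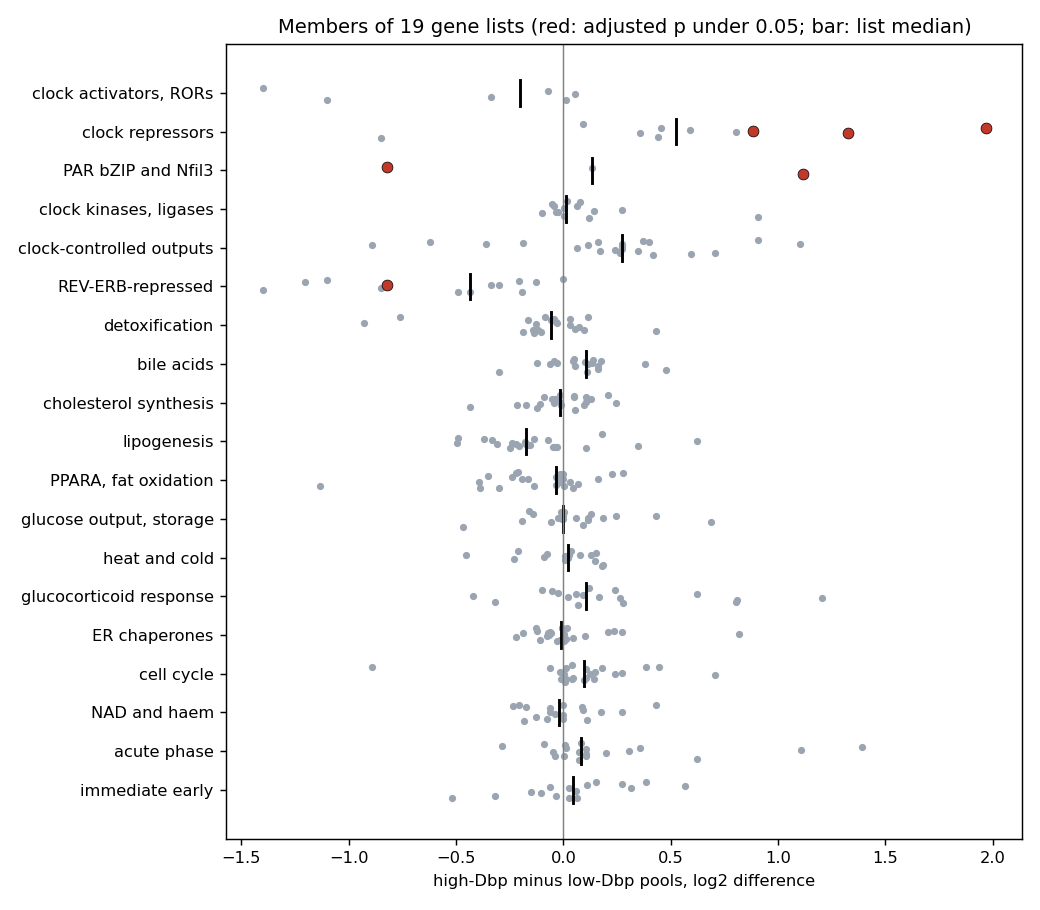
Log2 differences, high-Dbp minus low-Dbp pools, of the measured members of the 19 gene lists other than cell type markers, with the list's median marked and a vertical line at 0; called genes are larger and red. Medians run from -0.43 for REV-ERB-repressed genes to 0.52 for clock repressors. Those of the metabolic lists run from -0.17 for lipogenic genes to 0.11 for bile acid genes.

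No marker of another cell type was called by limma, where 0.0715% of all genes were called. At an unadjusted p under 0.05, 1 was higher and 1 lower, where 2.65% of all genes were higher and 3.95% lower. With so few markers these counts cannot be told apart from those shares. Fewer cells of a type and less RNA per cell cannot be told apart in these bulk pools. The mean log2 level of the Kupffer cell markers was 6.67 to 7.72 in high-Dbp and 6.75 to 7.54 in low-Dbp pools, that of sinusoidal endothelial markers 6.98 to 7.35 and 6.78 to 7.30, and that of stellate markers 7.84 to 8.19 and 7.58 to 8.08. Lymphocyte markers ran from 6.22 to 7.18 and 6.05 to 6.81, and erythroid markers, 2 of 3 measured, from 6.76 to 7.33 and 6.88 to 7.60. Adipocyte markers, 2 of 4 measured, lay at 3.98 to 4.09 and 3.87 to 4.24. Bile duct markers, 4 of 5 measured, were at 4.95 to 5.14 and 5.01 to 5.36, with the duct factor Sox9 at -0.51 ± 0.14 (limma adjusted p = 0.324). Each of these ranges overlapped between the classes.

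High-Dbp pools 13 and 5 carried transcripts of other tissues. Pancreas acinar markers, 4 of 6 measured, had a mean of 9.83 in ON F2 pool 13, against 6.46 in the highest of the other high-Dbp pools and 5.99 to 6.44 in low-Dbp pools. In pool 13 the digestive enzyme genes Ctrb1, Prss2 and Cpa1 read 10.06, 9.29 and 9.09. The remaining measured marker, Cela1, read 10.86 there but also 10.06 to 10.59 in low-Dbp pools, which lifts the list mean of every pool. Skeletal muscle markers ran from 3.97 to 4.99 in high-Dbp and 3.92 to 4.27 in low-Dbp pools, and IUGR F1 pool 5 was highest, with Acta1 at 7.28, Myl1 at 4.69 and Tnnt3 at 4.11, each above all other pools. The other 2 muscle markers were not highest there: Ckm read 4.92, below 5.17 in pool 2, and Myh1 read 3.94, below 4.10 in pool 6. Without pools 5, 13 and 8, the last with the highest actin ratio of the low class, Per3 and Tef were the genes called. Their class differences without any 1 pool ran from 1.75 to 2.21 for Per3 and from 0.99 to 1.23 for Tef.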

How the data were processed

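RNA of 15 liver pools was hybridised to 15 arrays. The deposited values are log2 expression per probe set, made by the authors with RMA per the submitters' processing notes (version not given in the sources used here). RMA corrects background, normalises arrays by quantiles and summarises probes, which compresses differences of dim genes and removes shifts shared by most genes. Array medians were 4.60 to 4.68. Precision is limited by the number of arrays, and no depth applies.

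Of 45101 probe sets 64 controls were left out, 34945 had 1 symbol, 932 several and 9160 none. Each of 18193 genes was read at its brightest probe set, and Dbp was left out of the tests. The classes were compared in R 4.3.3 with limma 3.58.1 (lmFit, eBayes, two-sided, Benjamini-Hochberg over 18192 genes, adjusted p under 0.05), without and with nutritional group as an additive factor, and by an F test of the class by group interaction. Groups with 1 class add to the spread estimate and not to the class difference. Residual degrees of freedom were 12, 8 and 6, and the median standard error was 0.077 without the factor and 0.09 with it. Tested on 20 simulated data sets, the fit without factor recovered 84% of changes of 0.5 and 98% of changes of 1 on the log2 scale, with a mean of 9.05 false calls. With the factor it recovered 62.6% and 95.7%, with 8.8 false calls. Genes were independent there, unlike in real data, and no nutritional group effects were added. Changes were planted in far more genes than were called in the real data. The recovered shares and the false calls therefore do not carry over to the calls given here.

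The members, gene lists (29, with 373 of 408 entries measured) and tests were chosen with earlier results of these data known. Named were all measured clock and PAR bZIP genes, called genes whose classes do not overlap (at most 10 a direction), and per other list its called members or the 2 with the smallest p. Alternatives were the Dbp level as a covariate, the mean of all probe sets, a filter on dim genes, a variance trend, array weights and leaving out pools. Promoter windows came from RefSeq (GRCm38.p6), which held 17 of the 19 clock and PAR bZIP genes and 12 of the 13 called genes.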

Additional observations from a re-analysis of the deposited data

Results flagged for a closer look

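The highest or lowest pool of a class stood farther from the rest of its class than Dixon's test allows in 19 of 214 tests (107 genes in both classes), where chance gives about 1 in 20. In the high class, Clock read 6.73 in pool 14, with the nearest pool at 7.16. Per1 read 5.19 in pool 6 (nearest 6.05). Markers of other cells stood out in pool 13, with Marco at 5.82 (nearest 4.90), Stab2 at 8.37 (nearest 7.87), Ctrb1 at 10.06 (nearest 5.50), Prss2 at 9.29 (nearest 5.42) and Cpa1 at 9.09 (nearest 4.57). Epcam was at 5.18 in pool 14 (nearest 4.87). Muscle genes stood out in pool 5, with Acta1 at 7.28 (nearest 4.86) and Myl1 at 4.69 (nearest 3.75), and in pool 6, with Myh1 at 4.10 (nearest 3.94). In the low class, A930033H14Rik read 4.74 in pool 7 (nearest 5.00) and Slc30a10 read 8.61 there (nearest 8.34). Zfp932 was at 5.97 in pool 15 (nearest 6.14), Krt7 at 3.67 in pool 15 (nearest 3.91) and Acta1 at 5.44 in pool 9 (nearest 4.83). In pool 8, Stard4 was at 9.22 (nearest 9.69), Cd3e at 5.83 (nearest 5.54) and Lep at 4.66 (nearest 4.46).

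For 14 of the 107 genes the class difference had opposite signs between groups, with all high-Dbp pools above the low-Dbp pools in 1 group and below them in another. In control, IUGR F1 and ON F2, Cyp2b10 differed by 1.08, -0.60 and -1.39, and Hspb1 by -1.11, 0.30 and -0.64. Asns differed by -0.32, 1.10 and 0.61, and Btg2 by -0.28, 0.30 and 0.69. Dnase1l3 differed by -0.12, 0.27 and -0.40, and Hba-a1 by -0.033, 0.021 and 0.13. Ighm differed by 0.59, 0.044 and -2.08, and Ckm by 0.47, 0.035 and -0.15. The stellate markers Dcn, Col3a1 and Pdgfrb differed by 0.19, -0.13 and -0.24, by 0.37, -0.17 and -0.096, and by 0.046, 0.10 and -0.25. Epcam differed by 0.081, 0.26 and -0.24, Ttr by 0.059, 0.012 and -0.071, and Cpa1 by 0.044, -0.061 and 2.47. The limma interaction test called none of the 14, and its smallest unadjusted p values among them were 0.0129 for Ighm and 0.0214 for Cyp2b10. Each within-group value rests on 1 or 2 pools per class. With so few pools, opposite splits arise easily by chance, and their share over all genes was not counted. The 14 are thus a description and not a sign that the groups differ.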

How the results depend on the processing

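Without the factor, 13 genes were called. Per3 and Tef were called under each alternative to that fit, with a highest adjusted p of 0.0387 for each. The count was 2 with nutritional group as a factor, 5 with the mean of all probe sets (4 of them among the 13), 52 with the Dbp level as a covariate over all 15 arrays (all 13 among them) and 2 without pools 5, 8 and 13. It was 16 with a variance trend, 16 with array weights and 13 with dim genes left out. Leaving out 1 pool gave 3 to 38 calls: 38 without pool 6, 3 without pool 13 or 14, 4 without pool 5, 6 without pool 2, 7 without pool 8 and 8 without pool 11. Of these 14 fits, Dtx4 was called in 14, Nr1d1, Slc30a10 and Tubb2a in 11, Nr1d2 in 10, Narf in 9, A930033H14Rik in 4, Lonrf3 and Lrfn3 in 3, and Nfil3 and Zfp932 in 2. With the mean of all probe sets the differences of Per3, Tef and Nr1d2 were 0.85, 0.64 and 0.74. With the factor, 2 genes were called, 6 with the Dbp level, 10 with array weights, 3 with dim genes left out, and 0 to 6 without 1 pool: 0 without pool 2 or 15, 4 without pool 6, 6 without pool 13. The interaction gave 0 calls with all genes (332 at an unadjusted p under 0.05) and with dim genes left out (157).

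Signs turned for small differences. Rorb was -0.052 with the factor, -0.003 with the Dbp level, and -0.019 to 0.059 without 1 pool. Hba-a1 was 0.041 with the factor and -0.052 to 0.006 without 1 pool. Tat was -0.008 without pools 5, 8 and 13. Without 1 pool Jchain ran from -0.062 to 0.52, Adipoq from -0.018 to 0.068 and Arntl2 from -0.034 to 0.11. The causes were not tested. No paired analysis was possible because the labels number the pools 1 to 15 and no number is shared between groups. Of 18193 genes 7830 had a mean below 5, and the count of 13 above was the same without them.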

Other observations

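With the Dbp level as a covariate over all 15 arrays, including pool 12, limma called 52 genes, 16 of which rose with Dbp and 36 of which fell. The choice of genes named in this paragraph was made after their values were seen. Clock genes that the comparison of classes had not called were among them: per log2 unit of Dbp, Arntl fell by 0.29 (limma adjusted p = 0.00139), Cry1 fell by 0.23 (0.00659) and Npas2 fell by 0.39 (0.0113), while Usp2 rose by 0.23 (0.00983), Per1 by 0.21 (0.019) and Ciart by 0.15 (0.02). Genes outside the clock and PAR bZIP lists were called too. Ppard, a nuclear receptor of lipid metabolism, fell by 0.32 (limma adjusted p = 0.00183), Sox9 by 0.14 (0.0229) and the DNA methyltransferase gene Dnmt3b by 0.17 (0.0298). Insig2, the known REV-ERB target named above, fell by 0.10 (limma adjusted p = 0.0381). The pools lie in clusters of high and low Dbp, so these slopes are not independent of the class difference. The covariate is also the value that chose the pools, so these p-values are no separate support for the genes named. They come from a fit without nutritional group. With that factor added, the fit on the Dbp level called 6 genes, and which of the genes named here are among them is not given.

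Ppard and Slc7a2, which had the next smallest p beside Arntl in the comparison of classes, did not overlap between them, and these were likewise named after their values were seen. Ppard read 5.04, 5.74, 6.03, 5.81 and 4.89 in pools 2, 5, 6, 13 and 14 and 6.07, 6.70 and 7.39 at the lowest, median and highest low-Dbp pool, a difference of -1.21 ± 0.22 (limma adjusted p = 0.0587). The other of its 2 probe sets had the opposite sign. Slc7a2, a cationic amino acid transporter, lay at 10.51 to 10.99 in the high and 9.85 to 10.43 in the low class, a difference of 0.60 ± 0.11 (limma adjusted p = 0.0587). Upp2, a liver uridine phosphorylase, stood at 1.10 ± 0.23 (limma adjusted p = 0.107) and at 1.25 ± 0.19 with nutritional group as a factor (limma adjusted p = 0.0728), where it was among the nearest to the threshold.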
